A study of Mus musculus with 6 samples.

Results

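The small leucine-rich proteoglycans examined here were decorin (Dcn), biglycan (Bgn), asporin (Aspn), fibromodulin (Fmod), lumican (Lum), Prelp, keratocan (Kera), epiphycan (Epyc) and osteoglycin (Ogn). All 9 genes were measured, out of 22180 genes in the table, through 12 array rows annotated with exactly 1 of these symbols. Bgn, Fmod and Prelp had 2 rows each, and the row that stands for such a gene was chosen by its mean over the 6 arrays, the highest of its rows. That mean served the choice and is not tested. The samples were pools of C57BL/6 mouse hearts at embryonic day 9.5, 3 of Hdac3-flox/flox; Isl1-Cre embryos (Hdac3-Isl1KO) and 3 of Hdac3-flox/flox embryos, hybridised to Affymetrix arrays. Both groups carry the floxed Hdac3 gene, which encodes a histone deacetylase, and only the first carries Cre, so effects of the Cre allele and of Hdac3 loss cannot be told apart. Isl1-Cre acts in cells that express Isl1, among them the second heart field, whose progenitors build the outflow tract and right ventricle. Cells of other origins in the same hearts keep intact Hdac3. The comparison asks which genes change in the heart when Hdac3 is removed from that lineage.

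Small leucine-rich proteoglycans are secreted proteins whose core is a curved stack of leucine-rich repeats. Most carry chondroitin, dermatan or keratan sulfate chains. They bind collagen fibrils and set how fibrils grow and pack, and several also bind growth factors of the TGF-beta family. In the heart they are best known as products of fibroblasts, valve cells and the epicardium-derived connective tissue, which forms after the stage sampled here. By sequence they fall into class I (Dcn, Bgn, Aspn), class II (Fmod, Lum, Prelp, Kera) and class III (Epyc, Ogn). Most of the genes lie in small clusters on chromosomes 10, 13 and 1, and Bgn lies alone on the X chromosome.

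All values are RMA values on the log2 scale, and each difference subtracts the Hdac3-flox/flox mean from the Hdac3-Isl1KO mean. Arrays correlated at 0.980 to 0.989. Hdac3-flox/flox replicate 2 correlated least with the others (0.982 on average) and stood farthest out on the first principal component. Hdac3 itself read 9.11, 9.20 and 9.31 in Hdac3-Isl1KO, against 9.67, 9.73 and 9.64 in Hdac3-flox/flox, without overlap (limma adjusted p = 0.0636). The cardiomyocyte markers were among the brightest rows: the mean of 14 such genes was 11.04 to 11.08 in Hdac3-Isl1KO pools and 11.11 to 11.14 in Hdac3-flox/flox pools, where the median array row was 5.66. The number of arrays, 3 per group, limits the precision. The labels do not say whether pools came from separate litters, so p-values reflect pool-to-pool spread, some of which may be technical.

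Of the 9 members, Dcn fell in Hdac3-Isl1KO hearts and 0 rose (limma, adjusted p under 0.05 over all 22180 genes). Over all genes 0.198% fell and 0.23% rose. Dcn, Bgn and Fmod were lower in every Hdac3-Isl1KO pool than in any Hdac3-flox/flox pool, and Lum was higher in every one. That is 4 of 9 members with groups that did not overlap, against 21.8% of all genes. The same 4 had an unadjusted limma p under 0.05, against 14.5% of all genes. The other 5 members overlapped between the genotypes. The median difference of the members was -0.054, against 9.4e-05 for all genes, with 6 members below 0 and 3 above. These members were grouped with earlier results of these data known, so the counts describe the family and are not independent evidence about it.

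**Figure D1:**
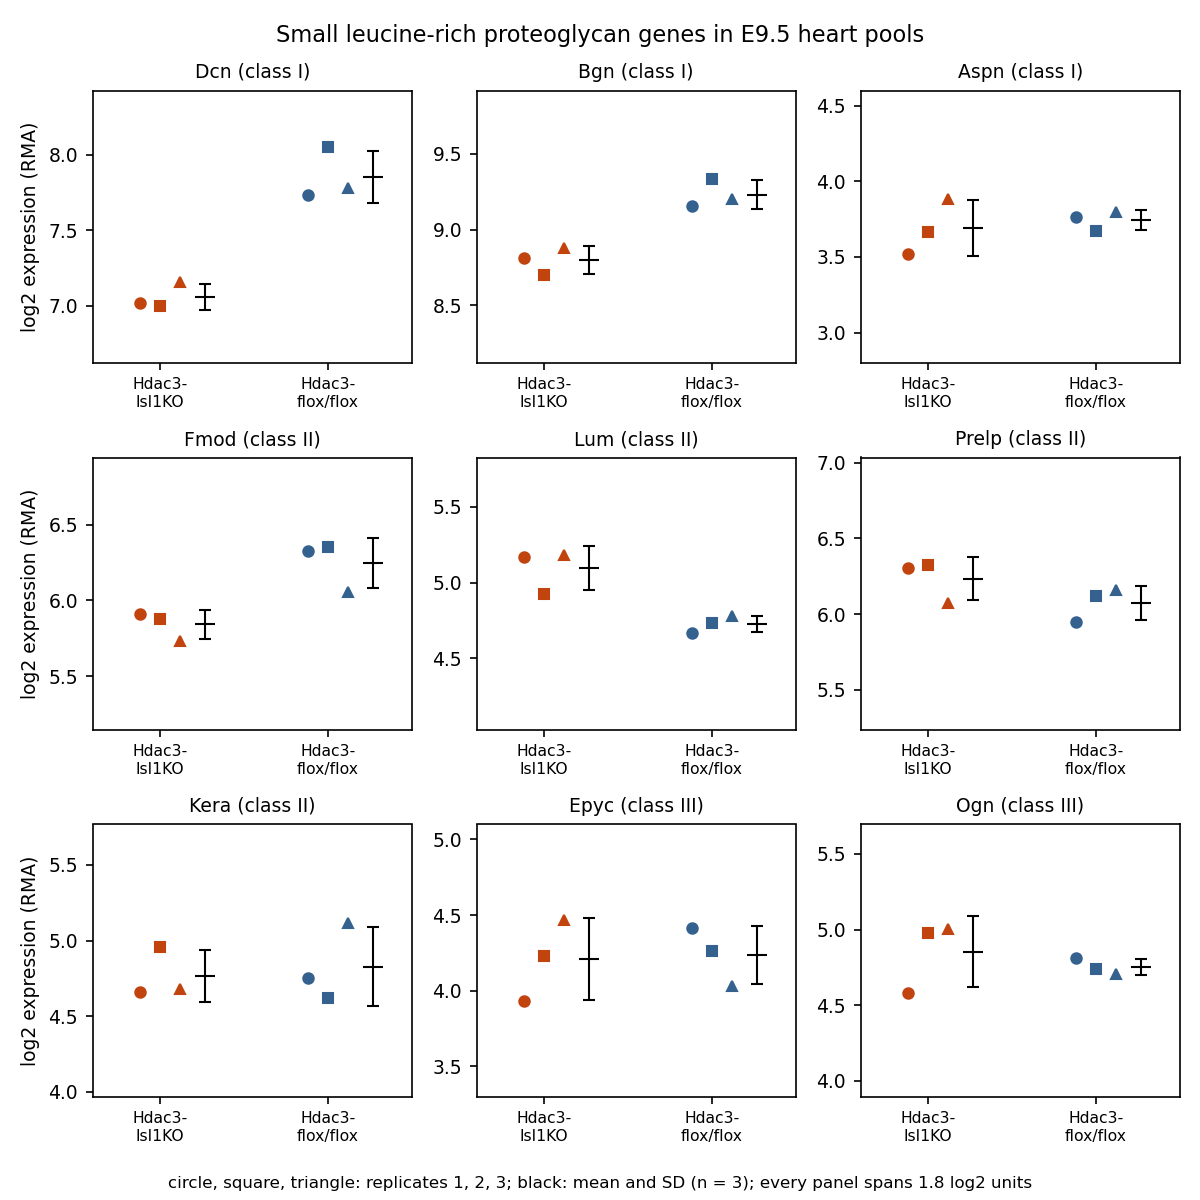
Log2 expression of each member in the 6 pools (circle, square and triangle are replicates 1, 2 and 3 of a genotype), with Hdac3-Isl1KO left of Hdac3-flox/flox in each panel and the mean and SD in black. All panels span the same height on the log2 scale; Dcn, Bgn and Fmod points of Hdac3-Isl1KO lie below those of Hdac3-flox/flox, Lum points lie above, and the other 5 panels overlap.

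Decorin, the class I proteoglycan that coats collagen fibrils and binds TGF-beta, was the member past the threshold. Dcn read 7.02, 6.996 and 7.16 in the 3 Hdac3-Isl1KO pools, against 7.73, 8.05 and 7.78 in the 3 Hdac3-flox/flox pools. The highest Hdac3-Isl1KO pool lay well below the lowest Hdac3-flox/flox pool, and Hdac3-flox/flox replicate 2 was the highest of all. The means were 7.06 ± 0.088 and 7.85 ± 0.17 (SD, n = 3 each), a difference of -0.80 (95% interval -1.04 to -0.55) or 1.74-fold lower, with a limma adjusted p of 0.0407. Among the 44 genes that fell, Dcn ranked 22 by size of the fall. In pooled whole hearts, fewer Dcn-expressing cells and less Dcn RNA per cell cannot be told apart. The call did not hold with fewer arrays: with any 1 array of either genotype left out, the limma adjusted p was 0.0669 to 0.192. Few genes passed in those fits, 2 to 25 over all genes, against 95 in the main fit. The loss is thus not particular to Dcn. The difference of Dcn ranged from -0.86 to -0.70. Without Hdac3-flox/flox replicate 2, the array that stood apart, it was -0.70 (limma adjusted p = 0.0669).

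Biglycan is the closest relative of decorin and the X-linked member. Its main row read 8.81, 8.70 and 8.88 in Hdac3-Isl1KO, against 9.16, 9.34 and 9.20 in Hdac3-flox/flox. The groups did not overlap, and the spread within each was small. The means were 8.80 ± 0.090 and 9.23 ± 0.094 (SD, n = 3 each), a difference of -0.43 (95% interval -0.63 to -0.24) that missed the threshold (limma adjusted p = 0.0973). It passed with a prior trended on expression level (limma adjusted p = 0.00382) and among genes above the median row (limma adjusted p = 0.0202). Those settings also raised the count over all genes, from 95 to 866 and 617. It did not pass in the other 14 of 16 alternatives, with a limma adjusted p of 0.180 to 0.302 when 1 array was left out. The second row of Bgn, at 7.01, 7.26 and 7.26 in Hdac3-Isl1KO, against 7.22, 7.02 and 7.45 in Hdac3-flox/flox, overlapped between genotypes and differed by -0.052 (95% interval -0.36 to 0.25). The rows thus disagree, and their mean differed by -0.24.

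Asporin, the third class I protein, differs from the others in carrying an aspartate-rich stretch. Aspn read 3.52, 3.67 and 3.88 in Hdac3-Isl1KO, against 3.76, 3.67 and 3.80 in Hdac3-flox/flox. The groups overlapped, and the difference was -0.054 (95% interval -0.30 to 0.19, limma adjusted p = 0.856). Its row was dim, below the 25th percentile row of 4.45.

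Fibromodulin, a keratan sulfate proteoglycan of class II that takes part in collagen crosslinking, read 5.91, 5.88 and 5.73 in Hdac3-Isl1KO, against 6.33, 6.36 and 6.06 in Hdac3-flox/flox. The groups did not overlap, but Hdac3-flox/flox replicate 3 came close to the Hdac3-Isl1KO pools. The difference was -0.41 (95% interval -0.65 to -0.16) and missed the threshold (limma adjusted p = 0.173). As with Bgn, the dimmer row of Fmod did not share it. That row read 5.38, 5.66 and 5.61 in Hdac3-Isl1KO, against 5.71, 5.48 and 5.54 in Hdac3-flox/flox, and differed by -0.028 (95% interval -0.27 to 0.22). The mean of both rows differed by -0.22.

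The promoters of Bgn and Fmod are shown because their main rows were both lower in every Hdac3-Isl1KO pool. RefSeq promoter sequence was matched by symbol for 7 of the 9 members, without Dcn and Lum. Each line gives the 250 bases before the annotated start, on the plus strand of GRCm38.p6, at chrX:73483351-73483600 for Bgn and chr1:134037004-134037253 for Fmod. Capitals mark the GC box motif, GGGCGG, searched on both strands.
Bgn: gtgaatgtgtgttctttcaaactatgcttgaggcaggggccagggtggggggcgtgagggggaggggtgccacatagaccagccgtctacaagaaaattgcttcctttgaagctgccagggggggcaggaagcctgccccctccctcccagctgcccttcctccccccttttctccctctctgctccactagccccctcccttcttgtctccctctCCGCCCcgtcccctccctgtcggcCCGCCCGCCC
Fmod: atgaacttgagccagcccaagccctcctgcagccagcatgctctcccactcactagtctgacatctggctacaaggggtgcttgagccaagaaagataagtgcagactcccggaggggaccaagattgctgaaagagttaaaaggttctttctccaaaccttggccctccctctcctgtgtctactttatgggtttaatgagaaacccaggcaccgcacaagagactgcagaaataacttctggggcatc
The Bgn window holds 3 GC boxes, all as the reverse complement and the last pair overlapping, and is 64.4% G or C. The Fmod window holds 0 and is 51.2% G or C, close to the median of 52% over 27025 promoters. Of those promoters, 32.9% hold a GC box. The other 5 members in the table had no GC box in this window. A TATA box (TATAAA, searched on both strands) stood in 13.0% of all promoters, with 2 matches each in Aspn and Ogn and 0 in the other 5 windows. A match is a description of the letters and says nothing of a factor.

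Lumican, the class II proteoglycan known for the ordered collagen of the cornea, was the member with the opposite reading. Lum read 5.17, 4.93 and 5.19 in Hdac3-Isl1KO, against 4.67, 4.73 and 4.78 in Hdac3-flox/flox. Each Hdac3-Isl1KO pool lay above each Hdac3-flox/flox pool, all below the median row. The means were 5.09 ± 0.15 and 4.73 ± 0.055 (SD, n = 3 each), a difference of 0.37 (95% interval 0.15 to 0.58) that missed the threshold (limma adjusted p = 0.164). With single arrays left out it ranged from 0.32 to 0.45.

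Prelp, which binds collagen and the heparan sulfate of basement membranes, read 6.31, 6.32 and 6.07 in Hdac3-Isl1KO, against 5.95, 6.12 and 6.16 in Hdac3-flox/flox. Hdac3-Isl1KO replicate 3 lay among the Hdac3-flox/flox pools, and the difference was 0.16 (95% interval -0.075 to 0.39, limma adjusted p = 0.518). Its dimmer row differed by 0.15, close to the main row, with a wider interval of -0.25 to 0.56.

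The 3 remaining members are known mainly from other tissues, Kera from cornea, Epyc from cartilage and Ogn from bone and connective tissue. Kera read 4.66, 4.96 and 4.68 in Hdac3-Isl1KO, against 4.75, 4.62 and 5.12 in Hdac3-flox/flox. Epyc read 3.93, 4.23 and 4.47 in Hdac3-Isl1KO, against 4.41, 4.26 and 4.03 in Hdac3-flox/flox. Ogn read 4.58, 4.98 and 5.01 in Hdac3-Isl1KO, against 4.81, 4.74 and 4.71 in Hdac3-flox/flox. All 3 overlapped between genotypes, and the Epyc row was also below the 25th percentile row. The differences were -0.063 for Kera (95% interval -0.41 to 0.29), -0.025 for Epyc (-0.40 to 0.35) and 0.10 for Ogn (-0.19 to 0.39). Each interval reaches -0.40 or beyond on the low side or 0.39 on the high side, so the values do not show that these genes were alike in both genotypes.

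**Figure D2:**
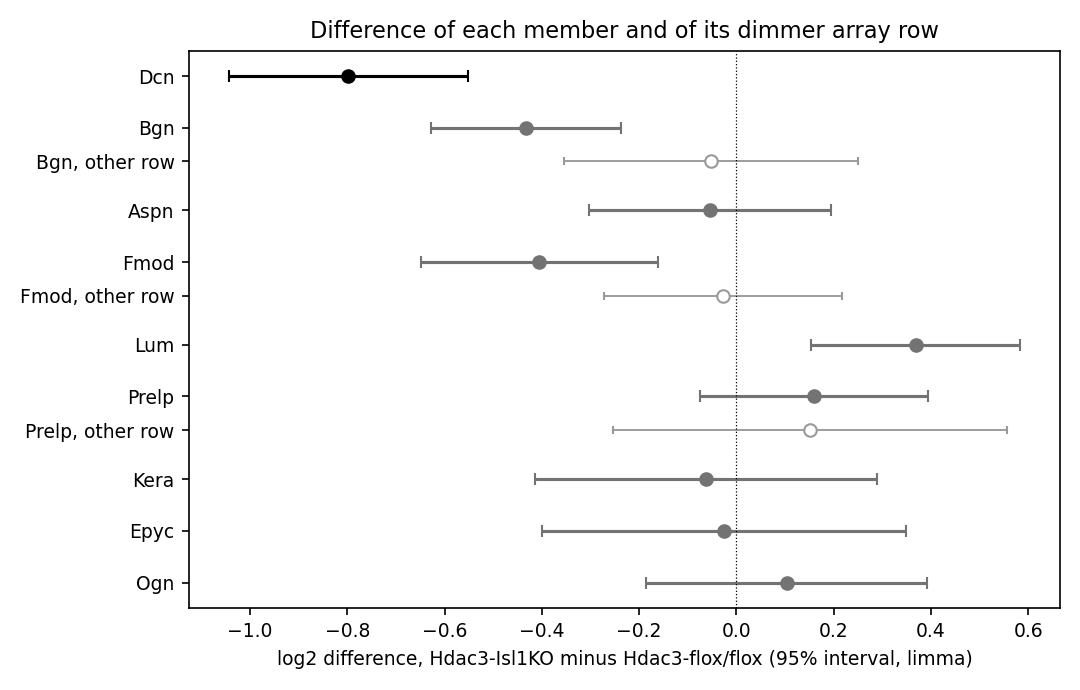
Log2 difference, Hdac3-Isl1KO minus Hdac3-flox/flox, of each member with its 95% interval from limma (filled points, Dcn in black as the member past the adjusted threshold) and of the dimmer row of Bgn, Fmod and Prelp (open points). The intervals of Dcn, Bgn, Fmod and Lum lie off 0, and the dimmer rows of Bgn and Fmod lie at -0.052 and -0.028.

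The members next to each other on a chromosome did not all share a direction. In the RefSeq gene order, Dcn, Lum, Kera and Epyc follow each other on chromosome 10, yet Dcn was at -0.80 and its neighbour Lum at 0.37. Within each array, Dcn minus Lum was 1.85, 2.07 and 1.97 in Hdac3-Isl1KO, against 3.06, 3.32 and 3.00 in Hdac3-flox/flox. The groups did not overlap, and the change of -1.17 was larger than the spread within either group (exact two-sided permutation test, p = 0.1, the smallest that 3 against 3 allows, 0.2 adjusted over 6 pairs). Fmod minus Prelp, neighbours on chromosome 1, was -0.40, -0.44 and -0.34 in Hdac3-Isl1KO, against 0.38, 0.24 and -0.10 in Hdac3-flox/flox, again without overlap (exact permutation p = 0.1, adjusted 0.2). With the mean of each gene's rows the groups overlapped, and the change was -0.37, against -0.56 with the main rows (exact permutation p = 0.2). Dcn minus Bgn, the class I relatives, also did not overlap, at -1.79, -1.71 and -1.72 in Hdac3-Isl1KO, against -1.42, -1.29 and -1.42 in Hdac3-flox/flox, so that the difference of Dcn lay below that of the main Bgn row by -0.37 (exact permutation p = 0.1, adjusted 0.2). With the mean of both Bgn rows, that gap was -0.56. The other 3 pairs, Lum with Kera, Kera with Epyc and Ogn with Aspn, overlapped between genotypes (exact permutation p = 0.2, 1 and 0.2).

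The genes that flank and fill these clusters gave a mixed picture too. Ecm2, a related leucine-rich matrix gene beside Aspn on chromosome 13, differed by -0.45 without overlap (limma adjusted p = 0.303), while Omd, between Aspn and Ogn, differed by -0.013. Ecm2 (means of 3.97 in Hdac3-Isl1KO and 4.42 in Hdac3-flox/flox) and Omd (2.76 and 2.78) were dim, below the 25th percentile row of 4.45. On chromosome 1, Fmod had Btg2 on its outer side at -0.27 (limma adjusted p = 0.237). Beyond Prelp and Optc (0.078) lay Atp2b4 at -0.40 (limma adjusted p = 0.156), close to the main row of Fmod at -0.41. Both Btg2 and Atp2b4 were lower in every Hdac3-Isl1KO pool than in any Hdac3-flox/flox pool. The flanking genes of Bgn, Haus7 and Atp2b3, differed by 0.059 and -0.049. Ccer1, next to Epyc, differed by -0.15, and Gm46240, on the other side of Dcn, was not measured.

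**Figure D3:**
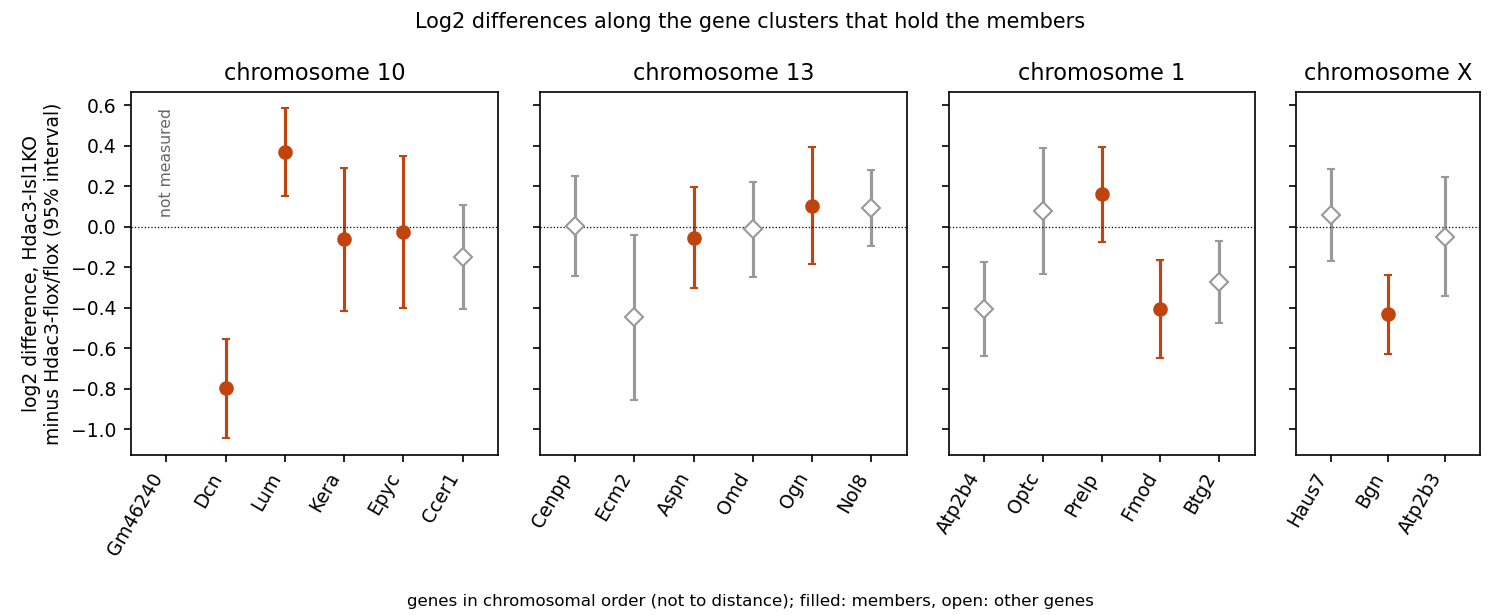
Log2 difference with 95% interval, Hdac3-Isl1KO minus Hdac3-flox/flox, of the members (filled) and of the genes between and beside them (open), in chromosomal order and not drawn to distance. Dcn and Lum are neighbours on opposite sides of 0, as are Fmod and Prelp, though the Prelp interval spans 0. Bgn stands at -0.43 between flanking genes near 0. Main rows are drawn, and the dimmer rows of Bgn and Fmod, not drawn, differed by -0.052 and -0.028.

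Around the core proteins, genes that build their chains or share their matrix mostly did not pass. In 7 related lists with 110 measured genes, 1 rose and 0 fell (limma, adjusted over all genes), and 20 had an unadjusted p under 0.05, which is 18.2% against 14.5% of all genes. The gene that rose was Srgn, for serglycin, a proteoglycan of secretory granules in blood and endothelial cells. Srgn read 7.10, 7.16 and 6.997 in Hdac3-Isl1KO, against 6.21, 6.38 and 6.20 in Hdac3-flox/flox, a difference of 0.82 or 1.77-fold (limma adjusted p = 0.0204). With 1 array left out the difference of Srgn was 0.78 to 0.88, and the call held without Hdac3-flox/flox replicate 2 (limma adjusted p = 0.0448) and was lost without any 1 of the other 5 arrays (0.0848 to 0.120). In its list of 25 other matrix and cell surface proteoglycans 18 were below 0, with a median of -0.11. Others there with the smallest p-values were Prg4 at 0.33 and Tgfbr3 at -0.18, neither past the threshold.

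Among 9 measured relatives outside the 9 members, 4 were above and 5 below 0 (median -0.013), with Nepn at 0.39 and Podnl1 at 0.27 beside Ecm2. Of these 9, 3 lay below the 25th percentile row, Nepn and Ecm2 among them. The enzymes of chondroitin and dermatan sulfate chains had 14 of 20 above 0 (median 0.032), with Chst13, a chondroitin sulfotransferase, at 0.38 and Csgalnact2, which starts the chain, at -0.27. Of 9 genes for keratan sulfate, 5 were above 0 (median 0.012), with the galactosyltransferase gene B4galt1 at -0.28. None of these passed, and limma adjusted p-values of the named ones were 0.163 to 0.455.

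The collagens that the core proteins coat showed no genes past the threshold among 16 fibrillar collagen and fibre genes with limma, and 4 with an unadjusted p under 0.05. Of the 16, 5 were above and 11 below 0 (median -0.024). Cartilage-type Col2a1 (0.34) and Col11a2 (0.28) and the microfibrillar Col6a3 (0.31) were above 0, and Col3a1, a fibril collagen of soft tissues, was at -0.17. Proteases and enhancers that process the cores or the collagens had 10 of 13 below 0 (median -0.075), among them Adamts1 at -0.29, Mmp14 at -0.25 and Adamts5 at -0.46, with 0 past the threshold and 4 at an unadjusted limma p under 0.05. Of 18 growth factors and receptors that the cores bind, 9 were below 0, with Ccn4, a matricellular Wnt target listed under its older name Wisp1, at -0.39 (limma adjusted p = 0.0880), Vegfa at -0.25 and Tgfb1 at 0.16. None passed, and 2 had an unadjusted limma p under 0.05.

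**Figure D4:**
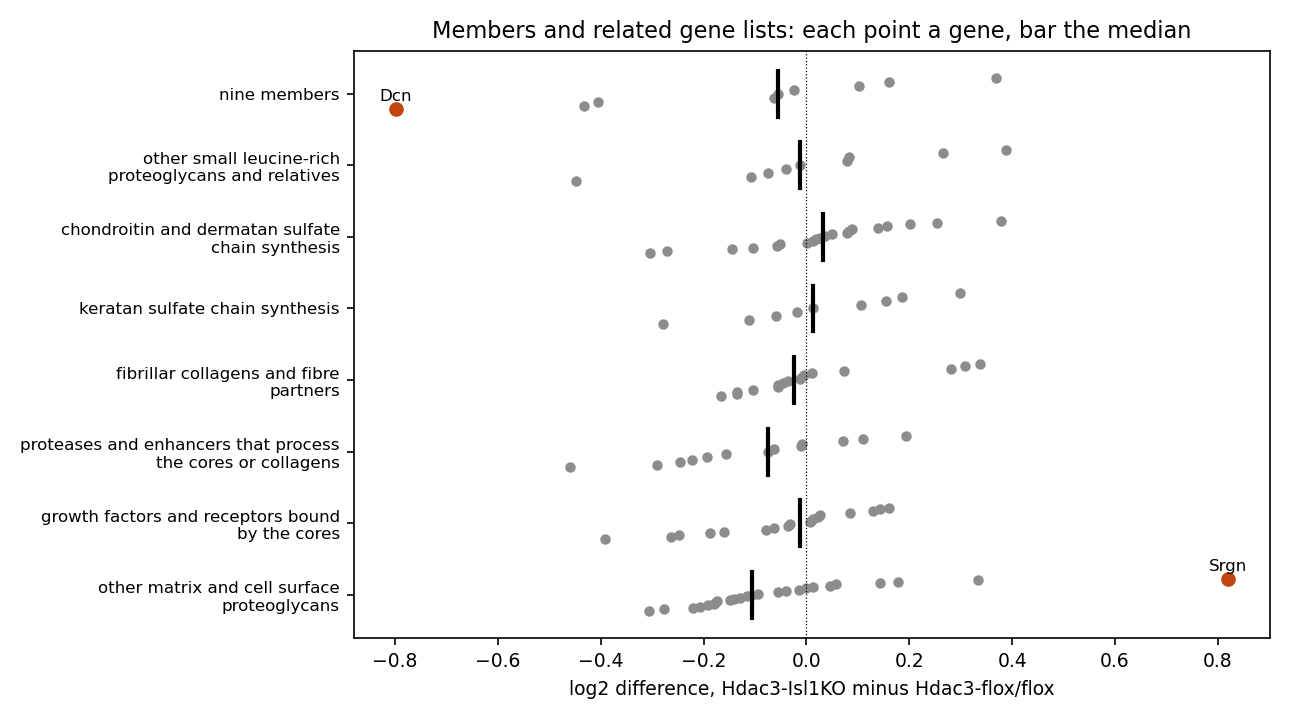
Log2 difference, Hdac3-Isl1KO minus Hdac3-flox/flox, of the 9 members and of the genes in 7 related lists, 1 point a gene, with the list median as a bar and genes past the adjusted threshold in red. The points past it are Dcn at -0.80 and Srgn at 0.82, and list medians lie between -0.11 and 0.032.

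The genes whose profile over the 6 arrays lay nearest to that of Dcn, out of 18963 other protein-coding genes, were Prl8a2, Aldh1a1, Dpp4, Bcl11a and Hpgd. The measure was the root-mean-square distance between deviations from each gene's own mean, 0.063 to 0.091 log2 units, and it is a description with no test. Prl8a2 is a prolactin-family gene of the decidua, and it read 5.87, 5.77 and 5.98 in Hdac3-Isl1KO, against 6.69, 6.91 and 6.55 in Hdac3-flox/flox. Aldh1a1 makes retinoic acid and is a marker on the epicardial list, and it read 7.07, 7.05 and 7.12 in Hdac3-Isl1KO, against 7.90, 8.10 and 7.93 in Hdac3-flox/flox. Nearest to Bgn were Plxdc2, Phka2, Stx17, Mospd2 and Ankrd29 at distances of 0.042 to 0.054. Phka2 and Mospd2 are X-linked as Bgn is, but the share of X-linked genes among all those compared was not counted. Nearest to Lum were the matrix gene Tnc, at 8.11, 7.95 and 8.10 in Hdac3-Isl1KO, against 7.64, 7.70 and 7.67 in Hdac3-flox/flox, and Tma7, Bud31, Cstb and Rasa4.

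On several lists of cell type markers some genes differed between genotypes, and their part in the readings of Dcn, Bgn, Fmod and Lum was not tested. The lists were chosen with earlier results of these data known. Their counts and means are a description and not independent evidence that a cell type changed. The epicardial and proepicardial markers had 9 of 11 below 0 (median -0.25), and 3 fell, Upk3b, Upk1b and Aldh1a1. Wt1 (0.0014), Tcf21 (-0.19), Gpm6a (-0.25) and Msln (-0.097) overlapped between genotypes, and Krt19 (0.19) was higher in every Hdac3-Isl1KO pool. The mean of the list was 7.25 to 7.32 in Hdac3-Isl1KO pools and 7.64 to 7.69 in Hdac3-flox/flox pools. Cushion mesenchyme markers, the valve-forming tissue, had 3 of 11 below 0 with list means of 7.99 to 8.03 in Hdac3-Isl1KO and 7.93 to 8.02 in Hdac3-flox/flox pools, which overlap. Among these markers Snai1 (0.17) was higher, and Postn (-0.15) and Tbx20 (-0.098) lower, in every Hdac3-Isl1KO pool. Of 7 decidual stroma markers Prl8a2 and Erv3 fell and 5 were above 0, so the lower list means, 5.32 to 5.43 in Hdac3-Isl1KO, against 5.58 to 5.65 in Hdac3-flox/flox, rest on those 2 genes. Of 8 trophoblast markers 5 rose, with list means of 6.22 to 6.32 in Hdac3-Isl1KO pools, against 5.31 to 5.48 in Hdac3-flox/flox pools. Elf5 (0.054), Ascl2 (-0.044) and Tpbpa (0.096) overlapped between genotypes, so the higher list means rest on the 5 that rose. Of 10 liver and yolk sac endoderm markers 1 rose, Fgb, with list means of 5.82 to 5.87 in Hdac3-Isl1KO, against 5.33 to 5.47 in Hdac3-flox/flox. Simple epithelium markers had 0 of 8 past the threshold with limma and 7 at an unadjusted p under 0.05, against 14.5% of all genes. Their list means were 6.33 to 6.37 in Hdac3-Isl1KO, against 5.95 to 6.00 in Hdac3-flox/flox.

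Endothelial markers (6 of 9 below 0) had list means of 8.80 to 8.83 in Hdac3-Isl1KO, against 8.82 to 8.89 in Hdac3-flox/flox, and neural crest markers (3 of 7 below 0) 6.07 to 6.20 in Hdac3-Isl1KO, against 6.04 to 6.30 in Hdac3-flox/flox. Both list means overlapped between genotypes, but some single genes did not. On the neural crest list Ednrb (-0.44, limma adjusted p = 0.0564) and Ets1 (-0.12, limma adjusted p = 0.455) were lower in every Hdac3-Isl1KO pool. Tfap2b on that list was at 0.41 with overlap (limma adjusted p = 0.308). On the endothelial list Tek was at -0.17 and lower in every Hdac3-Isl1KO pool (limma adjusted p = 0.376). Of 6 erythroid markers 4 were below 0 and Kel fell (-0.82). Rhag was at -0.58 (limma adjusted p = 0.0851), while the globin gene Hbb-bh1 was at 0.28 and higher in every Hdac3-Isl1KO pool (limma adjusted p = 0.246). The remaining 3 lay between -0.14 and 0.095, so the lower erythroid list means rest on Kel and Rhag, at 8.73 to 8.78 in Hdac3-Isl1KO, against 8.92 to 9.03 in Hdac3-flox/flox. Cardiomyocyte markers had 11 of 14 below 0 (median -0.096) with 0 past the threshold. They had 4 at an unadjusted limma p under 0.05, against 14.5% of all genes. Their list means, 11.04 to 11.08 in Hdac3-Isl1KO, against 11.11 to 11.14 in Hdac3-flox/flox, did not overlap. The groups were apart, in either direction, for 11 of the 14 genes, against 21.8% of all genes. Beside the X-linked Bgn, the sex-linked genes Xist (-0.099), Eif2s3y (-0.23), Uty (-0.16) and Kdm5d (-0.060) were all below 0, and 0 of these 4 had an unadjusted limma p under 0.05. Xist and Eif2s3y were lower in every Hdac3-Isl1KO pool than in any Hdac3-flox/flox pool, and Uty and Kdm5d overlapped. No row can be called absent, because no detection calls were used here.

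**Figure D5:**
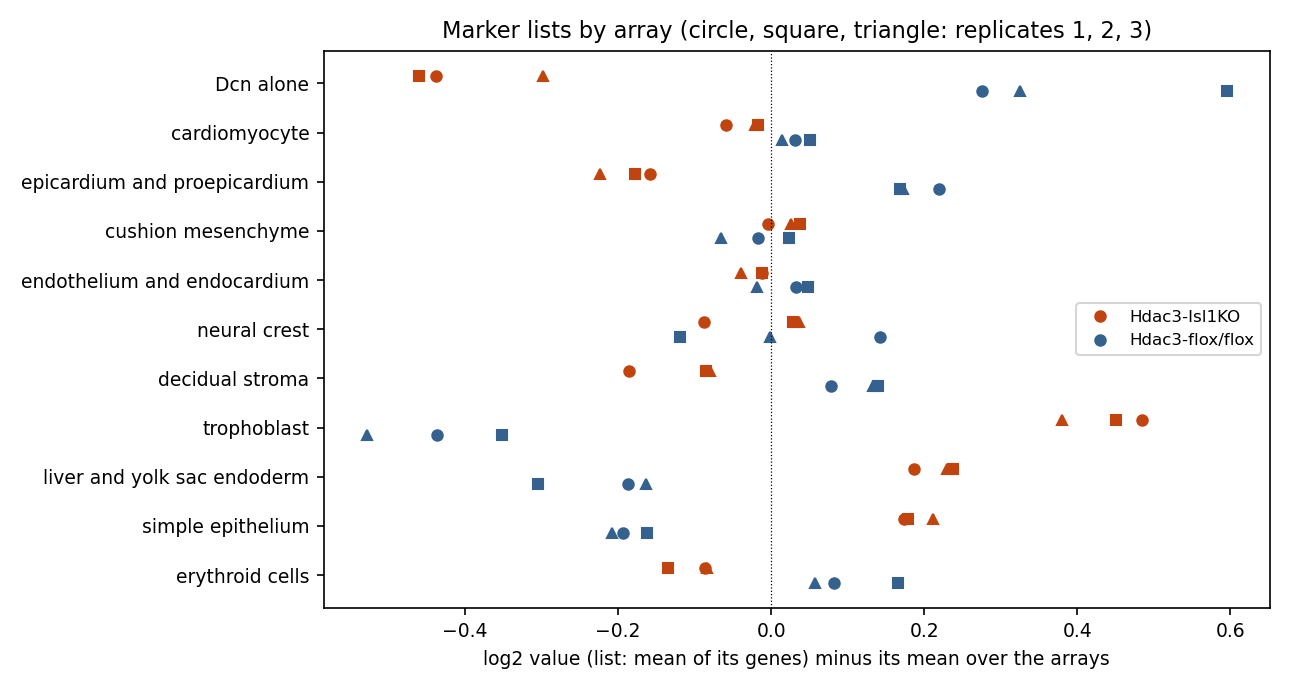
Dcn and the mean of each cell type marker list in each pool, as deviations in log2 units from the mean over the 6 arrays, with Hdac3-Isl1KO (red) drawn above Hdac3-flox/flox (blue). The epicardial list, the cardiomyocyte list by a smaller step and, through 2 genes each, the decidual and erythroid lists lie lower in Hdac3-Isl1KO as Dcn does. The trophoblast list, through 5 genes, and the endoderm and epithelium lists lie higher. The lists were chosen with earlier results of these data known.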

How the data were processed

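Gene expression in pooled embryonic hearts was measured from 100 ng of total RNA on Affymetrix arrays, 3 per genotype. The authors deposited log2 expression values, made with oligo and RMA per the submitters' processing notes; their versions and the genome build were not given in the sources used here. RMA corrects background, quantile normalizes and summarises probes, and compresses differences of dim rows. Of 41345 rows, 23521 had 1 gene symbol in the platform annotation and 1814 several. Keeping the brightest row of a gene left 22180 genes, with no filter on dim genes. Tests used limma 3.58.1 under R 4.3.3 (lmFit, eBayes with a constant prior, two-sided), adjusted by Benjamini-Hochberg over all genes, with a threshold of 0.05 and 95% intervals from the fit; the steps were tested on simulated data. RefSeq (GRCm38.p6) gave gene order, chromosome and promoters. Plots used matplotlib 3.10.9.

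The members and lists were chosen with earlier results of these data known. Named genes were all members, list genes past the threshold or with the smallest p-values, the 5 nearest profiles and flanking genes. Wisp1 and Ctgf were matched through their current symbols, Ccn4 and Ccn2. The alternatives tried were leaving out each array, a replicate block, other normalizations, filters, row rules and variance priors, and array weights. No scan dates or detection calls were used here, so array batches were not tested.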

Additional observations from a re-analysis of the deposited data

How the results depend on the processing

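Of 22180 genes, 95 passed with limma (51 higher, 44 lower). The count was 149 with quantile normalization, 243 with array weights, 235 for genes at or above the 25th percentile row, 617 at or above the median row (261 higher, 356 lower), 866 with a prior trended on the mean level (355 higher, 511 lower) and 2 to 25 with 1 array left out. Dcn was the member past the threshold in the main fit; 2 members, Dcn and Bgn, passed above the median row and with the trended prior, and 0 passed with any 1 array left out. Related list genes past the threshold numbered 1, against 2 above the 25th percentile row, 2 with array weights, 5 above the median row, 5 with the trended prior and 0 to 1 with an array left out. Deviations of same-numbered arrays from their group means correlated at -0.013, -0.086 and 0.040. These correlations cannot show whether same-numbered pools shared a litter or day, which the labels do not say. With a replicate block 0 genes, 0 members and 0 list genes passed with limma. In that fit 2744, 4 and 17 had an unadjusted limma p under 0.05, and Dcn had a limma adjusted p of 0.185. The alternatives were also run for Srgn, a choice made after seeing the data: its adjusted p was 0.105 with the replicate block, and with 1 array left out its call was lost in 5 of 6 fits.

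With 1 array left out, the sign turned for Aspn (-0.15 to 0.032), Kera (-0.17 to 0.082), Epyc (-0.15 to 0.12) and Kera minus Epyc (-0.17 to 0.21). The other 6 members kept their sign under all alternatives run, as did the other 5 pairs. The causes were not tested. Dim rows and 3 arrays per group limit what can be read for Aspn, Epyc, Kera, Ogn and Lum.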
